A study of Mus musculus with 102 samples.

Results

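The comparison set wild-type mouse embryonic stem cells 29 days after Cre transduction against the same line before transduction, CpG by CpG, in amplicon bisulfite sequencing. Its members were the 399 CpGs, in 64 amplicons, that had a methylation level in all 6 samples, out of 405 CpGs in 65 amplicons in the deposited wild-type table. The 6 CpGs left out belong to 1 constitutive low-methylated region on chromosome 10. Membership depended on coverage and not on the methylation level. In this assay bisulfite turns unmethylated cytosines into uracil, selected regions are amplified by PCR and sequenced, and the methylation level of a CpG is the percentage of its reads that still show C.

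All groups derive from C57BL6/J embryonic stem cells in which both alleles of Dnmt3a and Dnmt3b carry loxP sites around catalytic exons. The day 0 group comprised 3 samples of non-transduced wild-type cells, with intact Dnmt3a and Dnmt3b and with TET proteins. The Cre day 29 group comprised 3 samples of the same line, likewise with TET proteins, 29 days after Cre protein had been added to the culture, and the labels give its Dnmt3a/3b as catalytic dead. The mock day 29 group of 3 samples received only Cre dialysis buffer and served as the control for time in culture. For the comparison between lines, the same 2 time points of TTKO cells were used, 3 samples each, which carry the same floxed alleles but lack Tet1, Tet2 and Tet3 and stem from 1 clone. Excision was not complete according to the study's methods, so the Cre samples hold a minority of intact alleles. Per the methods, cells were kept on feeders before transduction and moved to feeder-free plates after it. The methods do not say how the day 0 samples were grown, so day 0 and day 29 may also differ in culture. The study's methods call the 3 samples biological replicates, the labels do not say whether they were separate cultures, and the p-values measure the spread between these samples.

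As background, DNMT3A and DNMT3B place methyl groups on unmethylated CpGs, whereas DNMT1 copies methylation onto the new strand after replication. TET enzymes oxidise methylcytosine, which opens a way to its removal. Once the DNMT3 enzymes are gone, methylation that maintenance fails to copy or that TET enzymes remove is not replaced, and a CpG drifts down from its starting level. Low-methylated regions (LMRs) are CpG-poor regulatory elements outside promoters where bound transcription factors go with reduced methylation. CTCF, the insulator protein, and REST, the repressor of neuronal genes, bind such regions.

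The region list assigns every amplicon to a class, and 7 stretches of the mm9 reference sequence (plus strand, 5′ to 3′) are shown because the main contrasts of the comparison run through them. Capitals mark the measured CpGs. The neuronal-progenitor-specific LMR nearest to Gm10295 (chr7:78616640-78616854, intergenic) held the CpG with the largest fall, and the embryonic-stem-cell-specific LMR in a coding exon of Zbtb20 (chr16:43609642-43609847) lost evenly along its length. The constitutive LMR nearest to Col1a1 (chr11:94734336-94734635, intergenic) held CpGs that went from intermediate levels to almost none. The remaining 4 hold CpGs that changed little, in an intron of Traf3 (chr12:112492606-112492774), in the coding exon of AU022751 on the X chromosome (chrX:5659115-5659290), in a REST class LMR nearest to Nxph2 (chr2:23146652-23146951, intergenic) and in the unmethylated region over B3galt4 (chr17:34088032-34088228).
Gm10295 NP-specific LMR: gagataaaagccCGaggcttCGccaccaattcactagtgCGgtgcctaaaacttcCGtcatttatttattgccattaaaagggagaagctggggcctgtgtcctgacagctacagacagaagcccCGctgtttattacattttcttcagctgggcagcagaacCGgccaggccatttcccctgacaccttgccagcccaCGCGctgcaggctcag
Zbtb20 ES-specific LMR: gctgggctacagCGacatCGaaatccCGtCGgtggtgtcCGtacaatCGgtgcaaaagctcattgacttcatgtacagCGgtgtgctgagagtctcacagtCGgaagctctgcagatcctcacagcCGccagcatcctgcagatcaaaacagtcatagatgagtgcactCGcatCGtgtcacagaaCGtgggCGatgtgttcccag
Col1a1 constitutive LMR: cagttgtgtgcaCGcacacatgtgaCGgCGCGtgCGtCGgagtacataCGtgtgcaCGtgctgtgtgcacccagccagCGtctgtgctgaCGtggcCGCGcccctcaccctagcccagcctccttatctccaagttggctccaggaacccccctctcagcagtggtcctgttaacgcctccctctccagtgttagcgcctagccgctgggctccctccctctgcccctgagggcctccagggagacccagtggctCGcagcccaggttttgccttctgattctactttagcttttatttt
Traf3 fully methylated region: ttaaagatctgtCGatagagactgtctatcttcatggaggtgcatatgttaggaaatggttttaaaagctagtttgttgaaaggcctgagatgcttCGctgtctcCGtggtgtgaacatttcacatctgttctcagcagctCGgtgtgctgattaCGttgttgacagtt
AU022751 methylated island: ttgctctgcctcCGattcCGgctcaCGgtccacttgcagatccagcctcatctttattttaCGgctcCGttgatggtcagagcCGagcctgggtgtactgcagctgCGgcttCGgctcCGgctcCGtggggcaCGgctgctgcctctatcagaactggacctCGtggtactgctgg
Nxph2 REST class LMR: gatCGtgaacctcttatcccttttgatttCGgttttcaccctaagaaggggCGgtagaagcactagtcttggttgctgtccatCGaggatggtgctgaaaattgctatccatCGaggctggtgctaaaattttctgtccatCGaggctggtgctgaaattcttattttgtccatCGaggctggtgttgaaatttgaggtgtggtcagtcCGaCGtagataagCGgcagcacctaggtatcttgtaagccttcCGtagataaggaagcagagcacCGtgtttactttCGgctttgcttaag
B3galt4 unmethylated region: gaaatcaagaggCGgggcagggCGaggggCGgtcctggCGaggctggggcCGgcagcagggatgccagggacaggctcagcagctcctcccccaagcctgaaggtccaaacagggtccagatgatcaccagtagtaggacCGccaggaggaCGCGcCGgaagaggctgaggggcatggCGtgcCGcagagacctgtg

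Methylation was lower at day 29 after Cre over the whole panel. The mean level over the 399 CpGs was 27.6%, 26.8% and 27.4% in the day 0 samples and 15.1%, 15.4% and 15.7% in the Cre samples, so the 2 groups did not overlap. The difference was -11.8 percentage points (standard error 0.285, n = 3 per group), and the Cre cells retained 56.5% of the day 0 mean. A two-sided exact permutation test over samples gave p = 0.1, the smallest p that 3 samples against 3 allow. Of the 399 CpGs, 374 had a lower mean at day 29 and 25 a higher one.

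To test each CpG, the methylated and unmethylated reads were fitted with a quasi-binomial logistic model (two-sided), which gives the change as a log2 odds ratio (the odds being methylated over unmethylated reads), and p-values were adjusted with the Benjamini-Hochberg method with a threshold of 0.05. At 195 CpGs (48.9% of those tested) methylation was lower after Cre, and at 1 (0.251%) it was higher. Every Cre sample lay below every day 0 sample at 250 CpGs (62.7%), and every Cre sample lay above at 5 (1.25%). The falls at the 195 CpGs ranged from 1.72 to 57.6 percentage points with a median of 16.6, and 149 of them were at least 10 points. Since CpGs of an amplicon are read on the same molecules, reads were also summed per amplicon. Of 64 amplicons, 46 (71.9%) were lower and 0 (0%) were higher by the same model, also at an unadjusted p under 0.05, where 47 were lower. Of the 46, 27 fell by at least 10 percentage points in mean level.

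Between 2307322 and 4665311 reads lay on these CpGs per sample, with a median coverage of 3441 to 6829 reads per CpG and at least 136 reads behind every level. The reads carry no molecular identifiers, so PCR copies count as reads, and replicates differed far beyond counting error. Precision was taken from the replicates. The median SD between replicates was 1.81 percentage points at day 0 and 1.65 at day 29. Where the day 0 level was 50% or more, it was 2.26 at day 0 and 5.45 at day 29. Across CpGs, which are not independent replicates, levels correlated between samples with r = 0.989 to 0.992 at day 0 and r = 0.939 to 0.975 at day 29. In the pooled SureSelect column of wild-type day 0, the authors' joined value, 253 of the CpGs had a level, which correlated with the amplicon day 0 mean at r = 0.988 across CpGs and was lower by a mean of 3.28 percentage points.

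**Figure D1:**
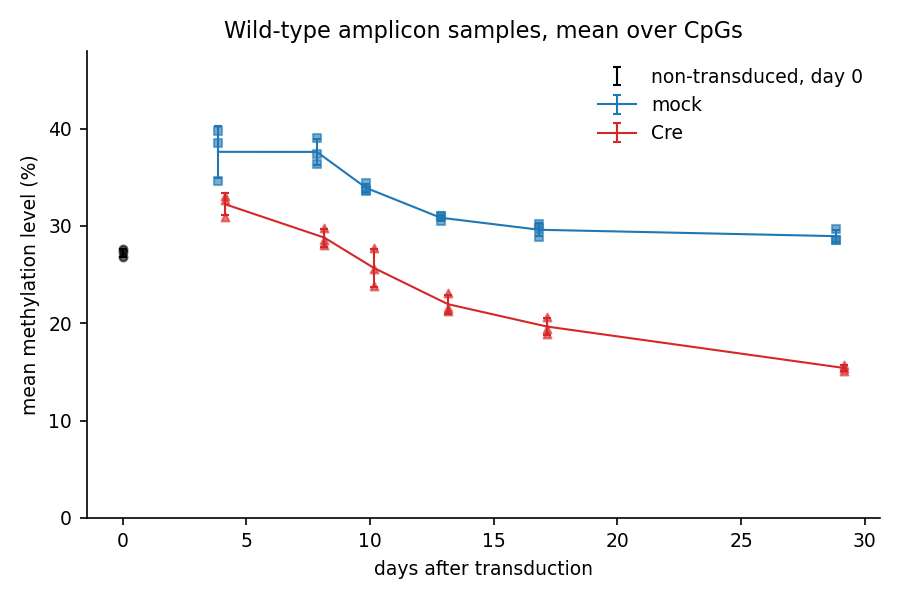
Mean methylation level (%, y axis) over the CpGs of the comparison in every wild-type amplicon sample against days after transduction (x axis), with points for samples and lines with error bars for the mean ± SD of 3. The Cre samples fall from 32.2% at day 4 to 15.4% at day 29, while the mock samples go from 37.6% to 28.9% and the non-transduced day 0 samples lie at 27.3%.

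Day 0 was not the highest point of the time course. Over the same CpGs, counting in each sample those with a level, the mean was 27.3% ± 0.398 in non-transduced cells, 32.2% ± 1.15 on day 4 after Cre and, in the mock of the same day, 37.6% ± 2.69 (SD, n = 3 each). After Cre it stood at 28.8% ± 0.915 on day 8 and 25.7% ± 1.97 on day 10 (SD, n = 3 each). It then fell to 22.0% ± 0.986 by day 13, 19.7% ± 0.918 by day 17 and 15.4% ± 0.291 by day 29 (SD, n = 3 each). The Cre mean was thus at or above the day 0 mean until day 8. In the mock the mean fell back to 28.9% ± 0.613 at day 29, with every sample above every day 0 sample. These courses are given as levels with no test.

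In the mock, few single CpGs differed between day 29 and day 0. The same quasi-binomial model called 22 of 398 CpGs higher (5.53%) and 0 lower (0%), where 72 and 24 passed an unadjusted p of 0.05. The 398 include the 6 CpGs outside the comparison, and 7 CpGs of the comparison had no mock level. The rises at the 22 CpGs ranged from 1.75 to 22.2 percentage points, and 19 of the 22 were among the CpGs lower after Cre. This count depended on the fit, since a beta-binomial test called 64 higher and 10 lower, limma on log odds called 0 in either direction, and it was between 0 and 10 when any 1 sample was left out, each of the 6 bringing it to 10 or fewer. Summed per amplicon, 19 of 64 (29.7%) were higher and 5 (7.81%) lower in the mock. The 5, named after their values were seen, were the constitutive LMRs nearest to or in Tram1 (21.4% at day 0, 15.7% in the mock and 4.07% after Cre) and 3830408C21Rik (17.0%, 11.4% and 1.54%) and the unmethylated regions of Agfg1, Hdac2 and Tmem106b. The Tmem106b region was at 3.08% at day 0, 2.02% in the mock and 1.76% after Cre, where it did not pass (adjusted p = 0.161 by the quasi-binomial test). Of the 190 CpGs lower after Cre that had a mock level, every Cre sample also lay below every mock sample at 183. With the mock of day 29 in place of day 0, the mean change over CpGs was -13.6 percentage points.

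**Figure D2:**
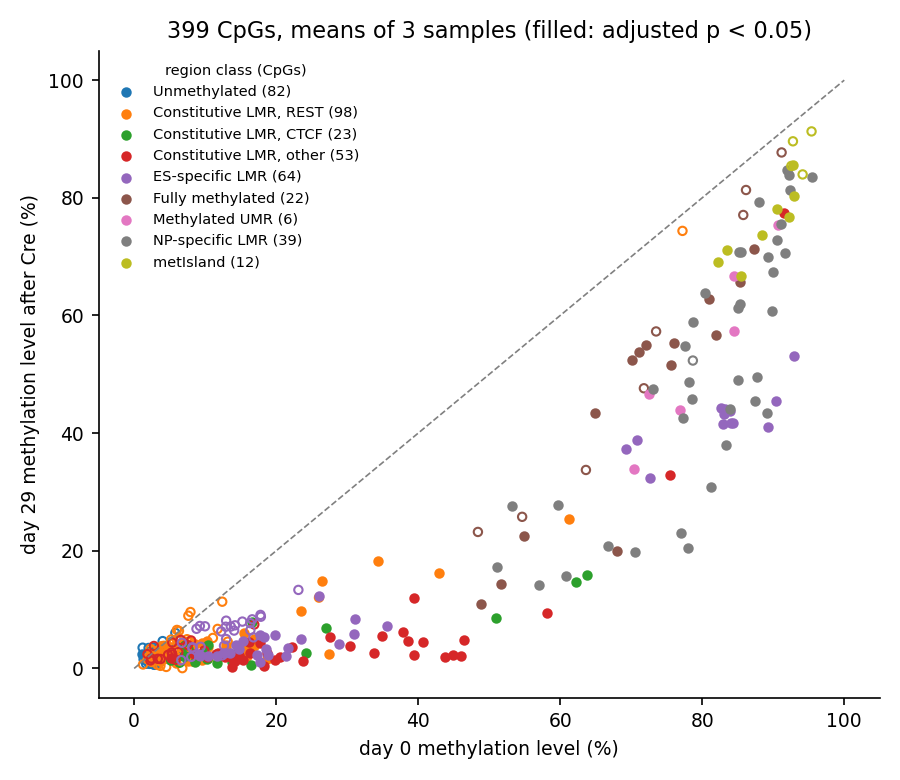
Each of the 399 CpGs by its day 0 level (x axis, %, mean of 3) and its level at day 29 after Cre (y axis, %, mean of 3), coloured by region class, with the dashed line where levels would be equal. Filled points passed the test (195 lower, 1 higher), and CpGs between 10 and 50% at day 0 lie close to the x axis at day 29.

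The size of the loss varied with the starting level. Among the 98 CpGs that started at 50% or more, 85 were lower, the mean went from 79.4% ± 0.958 to 52.2% ± 1.93 (SD, n = 3), and a median of 66.8% of the day 0 level was retained. At the 109 CpGs with 10 to 50%, 83 were lower, the mean went from 20.4% ± 0.655 to 4.97% ± 0.529 (SD, n = 3), and the median retained was 20.8%. Of these 109, 68 were under 5% at day 29. At the 192 CpGs under 10%, 27 were lower and 164 did not pass the test, with means of 4.57% ± 0.318 and 2.55% ± 0.218 (SD, n = 3). The median retained share was lowest, 15.8%, at the 19 CpGs with 30 to 50% at day 0, and it was 32.5% at the 18 CpGs with 50 to 70%, 66.5% at the 59 with 70 to 90% and 86.5% at the 21 with 90% or more. On the log odds scale the median log2 odds ratios of these bins were -3.20, -2.58, -1.82 and -1.58. They also came closer to 0 below 30%, where the bin of 20 to 30% had a median of -2.86 and the next lower bins, which end at 10%, 5% and 0, had -2.23, -1.24 and -0.51. The median retained shares of these 4 bins were 17.9%, 23.8%, 42.7% and 68.8%. The part of incomplete bisulfite conversion and of intact alleles left in the Cre samples in these low bins was not tested. Highly methylated CpGs did not all lose alike, since among the 98 the retained share ran from 16.1% to 96.6%, with 26 CpGs under 50% and 27 over 80%.

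**Figure D3:**
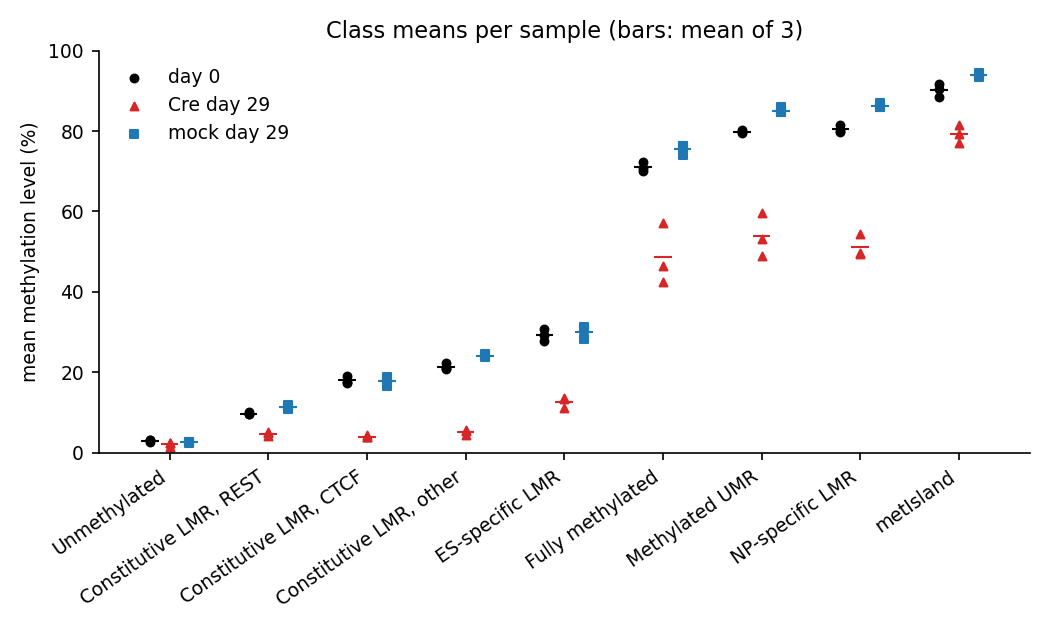
Mean methylation level (%, y axis) over the CpGs of each region class (x axis) in every sample of day 0, Cre day 29 and mock day 29, with short bars for the mean of 3 (mock: 15 of the 22 CpGs of the fully methylated class). In each of the 9 classes every Cre sample lies below every day 0 sample, and the gap is largest, -29.3 percentage points, in the NP-specific LMRs.

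In all 9 region classes the 3 Cre samples had lower class means than the 3 day 0 samples (two-sided exact permutation test, p = 0.1 in each, adjusted p = 0.1 over the classes, which is the smallest they can give). The counts of lower CpGs per class stand beside 48.9% over all CpGs. The constitutive LMRs with no named factor went from 22.2%, 21.0% and 20.9% at day 0 to 5.49%, 5.56% and 4.42% after Cre, and 36 of their 53 CpGs were lower. The CTCF class went from 18.0% ± 0.922 to 4.00% ± 0.263 (SD, n = 3) with 19 of 23 CpGs lower. The REST class started lower, at 9.71% ± 0.348, and reached 4.68% ± 0.403 (SD, n = 3), with 30 of 98 CpGs lower. These 3 classes ended between 4.00% and 5.16%.

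Both kinds of cell-type-specific LMR lost methylation, from very different starting levels. The LMRs specific to embryonic stem cells went from 29.2% ± 1.49 to 12.7% ± 1.44 (SD, n = 3) with 36 of 64 CpGs lower (56.3%, against 48.9% over all CpGs). These means include the 13 CpGs of the Zbtb20 amplicon, which was at 82.3% at day 0 and so not low-methylated in these cells. The median CpG of the class was at 16.7% at day 0, and the median change was -10.5 percentage points. The LMRs specific to neuronal progenitors, which are methylated in stem cells, went from 80.1%, 79.7% and 81.6% to 49.7%, 54.5% and 49.4%. This was a change of -29.3 percentage points (standard error 1.75), and 38 of their 39 CpGs were lower, the largest count relative to the size of a class with more than 1 amplicon.

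Fully methylated regions went from 70.8%, 70.1% and 72.3% at day 0 to 42.4%, 46.4% and 57.1% after Cre. Cre replicate 3 stood above the other two in this mean, and without it the change was -26.7 in place of -22.5 percentage points. The gap was widest in the Arhgef15 amplicon, which was at 59.9%, 57.9% and 61.0% at day 0 and at 15.4%, 11.9% and 70.5% after Cre, with 0 of 4 CpGs called lower (amplicon adjusted p = 0.35 by the quasi-binomial test). Replicate 3 was also the highest in the Acot7 amplicon, with 49.3%, 58.1% and 66.7%, but the lowest in the Atp2b2 amplicon and in the Traf3 amplicon with 2 CpGs. Of the 22 CpGs, 14 were lower. The single region listed as a methylated UMR, 436 to 614 bases from the start of Tuba3a, a tubulin gene, went from 79.9% ± 0.386 to 54.0% ± 5.40 (SD, n = 3), with 6 of 6 CpGs lower. The methylated island in AU022751 changed least of the methylated classes, from 90.2% ± 1.58 to 79.3% ± 2.22 (SD, n = 3), with 8 of 12 CpGs lower. The unmethylated regions were at 2.95% ± 0.216 and 2.08% ± 0.540 (SD, n = 3), with 8 of 82 CpGs lower and 1 higher, and their change of -0.867 percentage points was -0.556 without Cre replicate 2. The mock of day 29 lay above day 0 in 6 of the 9 classes, by 3.69 to 6.46 percentage points in the fully methylated, methylated UMR, NP-specific and island classes, by 2.73 in the constitutive LMRs with no named factor and by 1.67 in the REST class, with no overlap between samples and with the fully methylated class measured at 15 of its 22 CpGs in the mock (exact permutation test, p = 0.1 each, adjusted p = 0.15). In the other 3 classes the mock means were 2.61% for the unmethylated regions, a change of -0.342 percentage points from day 0 (exact permutation test, p = 0.2), 17.9% for the CTCF class (-0.025, p = 1) and 30.1% for the ES-specific LMRs (+0.899, p = 0.5).

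The largest fall of a single CpG was in the NP-specific LMR nearest to Gm10295, whose start is 120289 bases away, at chr7:78616660 (base 21 of the printed stretch). Its level was 78.2%, 79.2% and 76.6% at day 0 and 12.5%, 33.5% and 15.4% at day 29 after Cre, against 85.4%, 90.7% and 89.4% in the mock. The groups were far apart, although Cre replicate 2 was well above the other two. The log2 odds ratio was -3.91 (standard error 0.50, adjusted p = 0.0013 by the quasi-binomial test). Within this amplicon the loss depended on the CpG. The first 4 CpGs retained 25.0% to 30.0% of their day 0 level, whereas the last pair, 2 bases apart in the run cgcg, went from 91.7% to 70.7% and from 95.4% to 83.6% and retained 77.1% and 87.6%.

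In the coding exon of Zbtb20, which encodes a zinc finger transcription factor, 13 of 13 CpGs were lower and the whole stretch moved together. The amplicon mean was 82.3% ± 2.24 at day 0 and 42.2% ± 8.99 after Cre (SD, n = 3), and the CpGs retained 44.5% to 57.2%. The largest fall was at chr16:43609660, from 89.4%, 87.7% and 90.6% to 50.2%, 28.6% and 44.4%. The 3 Cre samples were spread widely yet all lay below day 0 (log2 odds ratio -3.46, standard error 0.44, adjusted p = 0.0013). After Cre its mean of 3 samples was still 94.5% on day 4 and 92.5% on day 10, then 78.3% on day 17, before the 41.1% of day 29.

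The constitutive LMR nearest to Col1a1, a collagen gene whose start is 63174 bases from the CpG named here, lost nearly all methylation at its first CpGs. At chr11:94734364 the levels were 38.4%, 46.2% and 53.5% at day 0 and 4.37%, 1.81% and 0.26% after Cre, against 58.7%, 42.3% and 55.2% in the mock. No Cre sample came near the day 0 range, and 4.66% of the day 0 level was retained (log2 odds ratio -4.96, standard error 0.77, adjusted p = 0.0026). The first 5 CpGs of the stretch were at 33.7% to 46.0% at day 0 and 1.98% to 2.55% after Cre. Further along, the CpGs at bases 57 to 97 were at 3.73% to 9.88% at day 0 and 1.60% to 4.84% after Cre, retained 30.6% to 73.8%, and none of the 4 passed the test.

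**Figure D4:**
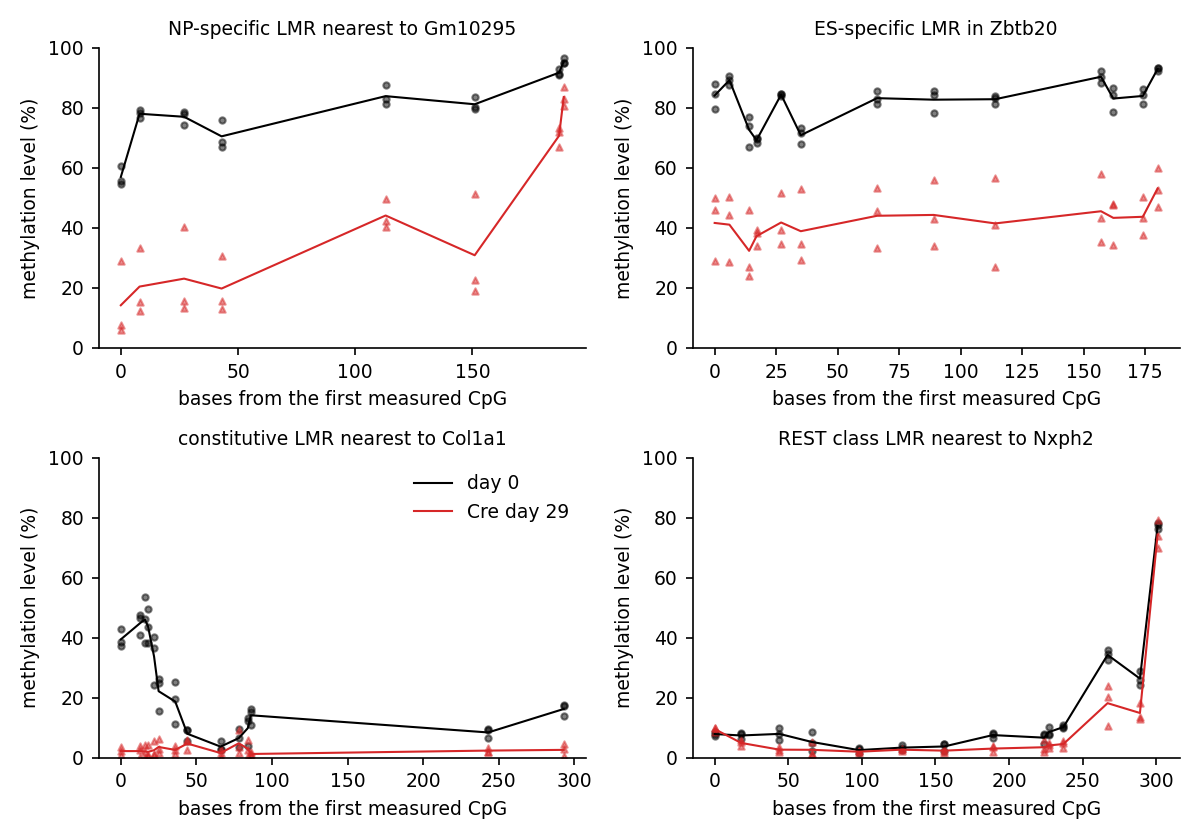
Methylation level (%, y axis) along 4 amplicons against bases from the first measured CpG (x axis), with points for each of 3 samples and lines for their means at day 0 and at Cre day 29. The Zbtb20 stretch falls evenly by 32.0 to 48.2 percentage points, the Gm10295 stretch by 11.8 to 57.6, the first 5 CpGs of the Col1a1 stretch reach 1.98% to 2.55%, and the last CpG near Nxph2 stays at 74.4%.

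By the naming rule, the other 7 of the 10 largest falls, at most 1 CpG per amplicon, lay between 38.2 and 48.8 percentage points. The CpG at chr3:65259461, 62916 bases from the start of Ssr3, a subunit of the translocon-associated complex, went from 58.2% ± 5.47 to 9.39% ± 2.82 (SD, n = 3). In an intron of Atp2b2, a plasma membrane calcium pump, chr6:113705585 went from 68.0% ± 4.45 to 19.9% ± 6.18 (SD, n = 3). The CTCF class CpG at chr14:20659412, 16367 bases from the start of 2700060E02Rik, went from 63.8% ± 4.59 to 15.9% ± 2.38 (SD, n = 3).

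Aff3, a nuclear protein gene, held an intronic CpG of an NP-specific LMR at chr1:38493528, with 65.3%, 66.0% and 69.1% at day 0 and 21.2%, 22.0% and 19.0% after Cre. The replicates were tight in both groups (log2 odds ratio -2.91, standard error 0.10). A CpG at chr13:73207891, 190054 bases from the start of Irx4, a homeobox gene, went from 88.2%, 90.9% and 88.2% to 43.9%, 42.0% and 44.4%, also with little spread. At chr13:28387667, 153314 bases from the start of Prl5a1, of the prolactin family, the level went from 75.5% ± 5.56 to 32.9% ± 4.77 (SD, n = 3). In an intron of Scube1, which encodes a cell surface protein with EGF repeats, chr15:83540755 went from 87.8% ± 2.84 to 49.6% ± 11.4 (SD, n = 3). All 10 of these CpGs passed the test in each of the alternative fits that could be made for them.

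Some highly methylated CpGs kept nearly all of their methylation. The smallest relative loss among CpGs with at least 50% at day 0 was at chrX:5659221 in the coding exon of AU022751, with 94.8%, 94.1% and 89.5% at day 0 and 88.4%, 94.1% and 86.3% after Cre. The samples overlapped, 96.6% of the day 0 level was retained, and the log2 odds ratio of -0.66 (standard error 0.51, adjusted p = 0.328 by the quasi-binomial test) did not pass, but did without Cre replicate 2 (-1.05, adjusted p = 0.037). It lies at base 107 of the printed stretch. The measured CpGs next to it, at bases 84 and 113, went from 83.5% ± 2.52 to 71.1% ± 7.24 and from 92.8% ± 0.634 to 85.6% ± 3.06 (SD, n = 3), and both passed.

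In the REST class LMR nearest to Nxph2, a neurexophilin gene 29828 bases away, the last measured CpG at chr2:23146938 was at 78.1%, 76.2% and 77.4% at day 0 and 79.3%, 69.9% and 73.9% after Cre. It retained 96.3% (log2 odds ratio -0.19, standard error 0.21, adjusted p = 0.481). The CpG 12 bases before it, chr2:23146926, went from 26.4% ± 2.47 to 14.9% ± 3.03 (SD, n = 3) and the one before that from 34.3% ± 1.60 to 18.2% ± 6.85 (SD, n = 3), both lower by the test. Neighbouring CpGs of this amplicon thus differed in level and in loss.

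Traf3, which encodes an adaptor of tumour necrosis factor receptors, held 2 of the named sites, both intronic. At chr12:112492702 the level went from 91.2% ± 0.215 to 87.7% ± 2.22 (SD, n = 3, adjusted p = 0.0642 by the quasi-binomial test), and without Cre replicate 2 or without Cre replicate 3 the adjusted p was 0.0333 or 0.0462. It was 0.0492 when only CpGs with at least 10% at day 0 were tested. At chr12:112491415 it went from 86.2% ± 0.346 to 81.3% ± 7.29 (SD, n = 3, adjusted p = 0.295), with Cre replicate 3 at 73.0% and the other two at 84.6% and 86.5%. The last of these sites, chr7:138970174, lies in an intron of the Fgfr2 gene model, which in GENCODE M1 also spans Gpr26. It went from 92.0% ± 0.884 to 84.8% ± 4.84 (SD, n = 3, adjusted p = 0.0396), a call that was lost when Cre replicate 1 or any 1 day 0 sample was left out (adjusted p = 0.0737 to 0.115), with limma (0.0641) and with the replicate block (0.0836).

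A single CpG was called higher by the test. It lies at chr17:34088188 in a coding exon of B3galt4, a galactosyltransferase gene, 245 bases from its start, and was at 1.03%, 1.13% and 1.27% at day 0 and 2.24%, 3.03% and 2.17% after Cre. The mock of day 29 was at 1.51%, 3.12% and 2.26% there, in the same range as Cre. The log2 odds ratio was 1.13 (standard error 0.34, adjusted p = 0.0325), and the call was lost without any 1 of the day 0 samples (adjusted p = 0.0778 to 0.138) with the beta-binomial test (adjusted p = 0.128) and in a fit of all 39 wild-type samples (adjusted p = 0.529). The other 10 CpGs of this unmethylated region were at 1.68% to 4.74% at day 0 and did not pass. The part of incomplete bisulfite conversion in levels of this size was not tested. Of the 8 unmethylated-class CpGs that fell, 3 were in an intron of Agfg1 (from 2.73% to 2.88% down to 0.974% to 1.01%), 2 near Hdac2, a histone deacetylase, 2 in the region nearest to Id3, an inhibitor of helix-loop-helix factors whose start is 8630 to 8717 bases away, and 1 in an intron of 1810063B07Rik. The mock, which received no Cre, was also lower in the first pair of regions. The mean of the Agfg1 amplicon was 2.61% at day 0, 1.08% after Cre and 1.20% in the mock (mock log2 odds ratio -1.15, adjusted p = 0.0102 by the quasi-binomial test). That of the Hdac2 amplicon was 3.02%, 2.27% and 2.25% (mock log2 odds ratio -0.47, adjusted p = 0.015), so these falls cannot be told apart from those without Cre.

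Across whole amplicons the same spread was seen within classes. In the constitutive LMRs, the mean of the Ssr3 amplicon went from 42.1% ± 4.15 to 5.61% ± 2.73, and that of the Trak1 amplicon from 3.81% ± 2.21 to 2.50% ± 1.13 (SD, n = 3). In the CTCF class the extremes were the 2700060E02Rik amplicon, from 30.2% ± 1.66 to 5.89% ± 1.38, and the Lonrf2 amplicon, from 7.29% ± 0.949 to 3.09% ± 1.28 (SD, n = 3). In the REST class they were the Tssc1 amplicon, from 19.1% ± 2.25 to 7.64% ± 2.90, and the Otor amplicon, from 3.98% ± 1.20 to 3.68% ± 1.16 (SD, n = 3). The Trak1 and Otor amplicons did not pass, the Lonrf2 amplicon no longer passed without any 1 of the day 0 samples (adjusted p = 0.0542 to 0.065), and the Tssc1 amplicon no longer passed without day 0 replicate 2 (adjusted p = 0.0645).

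In the ES-specific class the amplicon with the smallest fall was the one over Slx1b, a structure-specific endonuclease gene, with 20 CpGs. Its means were 20.4%, 13.1% and 9.21% at day 0 and 10.4%, 7.99% and 4.21% after Cre, so the groups overlapped, and 1 of 20 CpGs passed (amplicon log2 odds ratio -0.79, standard error 0.46, adjusted p = 0.162). The day 29 mean of 7.52% ± 3.10 was above the 3.71% ± 0.306 of day 17 after Cre (SD, n = 3 each). The samples with the same number ranked alike in both groups there, and with the replicate number as a block the amplicon passed (adjusted p = 0.00192). In the fully methylated class, the Atp2b2 amplicon went from 55.8% ± 2.72 to 17.0% ± 3.71 and the Traf3 amplicon with 2 CpGs from 84.0% ± 0.386 to 69.0% ± 7.22 (SD, n = 3), a call lost without any 1 of the day 0 samples (adjusted p = 0.0618 to 0.0864). In the NP-specific class, the Gm10295 amplicon went from 79.3% ± 0.846 to 38.4% ± 8.99 and the Fgfr2 amplicon from 85.5% ± 1.90 to 71.3% ± 2.87 (SD, n = 3). Of the unmethylated regions, the one nearest to Dgcr6, 15836 to 15981 bases from its start, went from 4.44% ± 0.823 to 2.82% ± 0.947, and the one over B3galt4 from 2.46% ± 0.194 to 2.20% ± 0.355 (SD, n = 3). Neither passed, though the Dgcr6 amplicon did without Cre replicate 3 (adjusted p = 0.0418).

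Position and sequence around a CpG were described by counts and medians only, since CpGs of an amplicon are not independent and the groups differ in starting level. Of 177 CpGs between genes 101 were lower, of 143 in genes 81, and of 79 within 1000 bases of a gene start 13, against 48.9% over all CpGs. Among the 98 CpGs with at least 50% at day 0, those between genes retained a median of 48.7% (29 CpGs in 8 amplicons, day 0 median 78.7%) and those in genes 72.8% (63 CpGs in 11 amplicons, day 0 median 83.2%). With A or T on both sides the median retained was 52.2% (17 CpGs), with C or G on both sides 64.5% (31 CpGs) and with one of each 75.3% (50 CpGs). At the 109 CpGs with 10 to 50% at day 0 this order was turned around, with 29.9%, 28.1% and 18.5%. The number of other CpGs within 35 bases went with small differences among the highly methylated CpGs, whose median retained was 68.3% with no neighbour (11 CpGs in 8 amplicons), 67.8% with 1 (33 in 15), 62.4% with 2 to 3 (39 in 13) and 57.6% with 4 to 6 (15 in 3). At these last 15 CpGs the retained share ran from 44.5% to 96.6%. At the CpGs with 10 to 50% at day 0 the medians did not follow this order, with 19.3% for no neighbour (27 CpGs in 21 amplicons), 18.7% for 1 (26 in 15), 22.9% for 2 to 3 (33 in 15), 51.2% for 4 to 6 (11 in 4) and 27.5% for 7 or more (12 in 2).

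The last comparison asked whether the change from day 0 to day 29 differed between wild-type cells and TTKO cells, which differ in TET proteins and started from a higher level. Over the 392 CpGs with a level in all 12 samples, the means were 26.4% and 14.6% in wild-type cells and 40.3% and 24.4% in TTKO cells at day 0 and day 29. In TTKO cells alone, 80.4% of these CpGs were lower at day 29. With the interaction of line and day in the same quasi-binomial model, the log odds fell further in wild-type cells at 5 CpGs (1.28%) and less at 31 CpGs (7.91%), and 104 CpGs passed an unadjusted p of 0.05. Leaving out Cre replicate 2 brought the 5 to 18 and leaving out Cre replicate 3 brought it to 10, while it was 2 to 3 without any 1 of the day 0 samples. The 31 became 15 without day 0 replicate 2 and 19 without day 0 replicate 3. Summed per amplicon, 5 of 63 (7.94%) lost more and 21 (33.3%) lost less in wild-type cells.

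The 5 CpGs with the larger loss in wild-type cells were intermediate or highly methylated at day 0, from 45.0% upwards, and lay in 4 amplicons. Near Irx4, chr13:73207821 went from 89.9% ± 1.80 to 60.7% ± 2.64 in wild-type cells and from 93.4% ± 0.916 to 90.8% ± 0.287 in TTKO cells (SD, n = 3, interaction log2 odds ratio -2.05, standard error 0.34, adjusted p = 0.00769). The named Irx4 CpG, chr13:73207891, retained 48.7% in wild-type and 93.8% in TTKO cells (interaction -1.63, adjusted p = 0.0271, and 0.0542 with the replicate block). The others were in the Col1a1 LMR (chr11:94734361, 4.98% against 68.2% retained), in Zbtb20 (chr16:43609834, 57.2% against 94.6%) and in Aff3 (chr1:38493472, 62.4% against 91.8%). The CpG of Zbtb20 with the largest wild-type fall went from 97.6% ± 0.569 to 96.6% ± 0.514 in TTKO cells (SD, n = 3), but its interaction missed the threshold (-2.95, standard error 0.88, adjusted p = 0.0634) and passed it without Cre replicate 1 (0.0349), without Cre replicate 2 (0.00534) and with the block (0.0302).

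**Figure D5:**
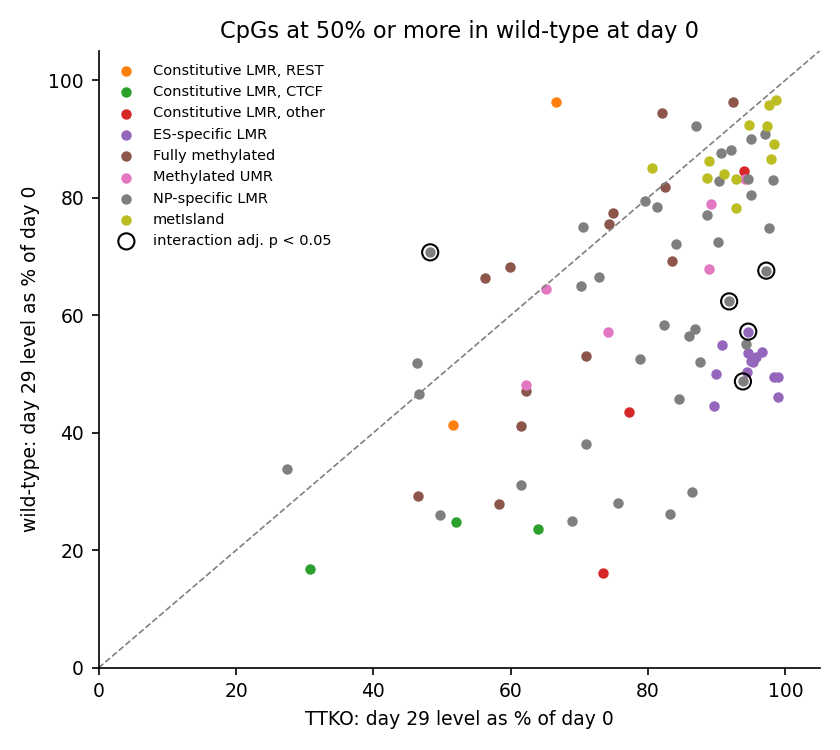
Share of the day 0 level still present at day 29 after Cre in wild-type cells (y axis, %) against the same share in TTKO cells (x axis, %), for the 91 CpGs with at least 50% methylation in wild-type cells at day 0 and a level in all 12 samples. Of these, 77 lie below the dashed line of equal shares, and circles mark the 5 CpGs of this range whose interaction passed.

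Of the 91 CpGs with at least 50% in wild-type cells at day 0 and a TTKO level, 77 retained a smaller share in wild-type than in TTKO cells, with medians of 64.5% and 87.0%. These 91 started at a mean of 79.7% in wild-type and 90.5% in TTKO cells. At the 109 CpGs with 10 to 50% in wild-type cells the medians were 20.8% in wild-type and 25.3% in TTKO cells. They were 58.7% and 27.6% at the 192 under 10%, and 49.5% and 36.1% over all 392. The part of the different starting levels in these shares was not tested. The interaction passed at 5 of the 91, 4 with the larger and 1 with the smaller loss in wild-type cells. The 31 CpGs with the smaller loss of log odds in wild-type cells were at day 0 under 10% in 17 cases, between 10 and 50% in 13 and above in 1, beside 192, 109 and 91 of the 392 CpGs tested. Their medians went from 9.25% to 4.84% in wild-type cells and from 19.0% to 1.80% in TTKO cells. The Slx1b amplicon held 13 of them, and at its last CpG, chr7:133836187, the level was 9.25% ± 2.60 and 7.22% ± 1.71 in wild-type but 14.2% ± 1.17 and 0.528% ± 0.352 in TTKO cells (SD, n = 3). In wild-type cells after Cre, the mean of this amplicon was 4.45% ± 1.17 on day 13 and 3.71% ± 0.306 on day 17. It was higher and more spread, 7.52% ± 3.10, on day 29 (SD, n = 3 each). The mock likewise went from 8.36% ± 2.42 on day 17 to 14.1% ± 2.05 on day 29 (SD, n = 3 each). The Col1a1 LMR held both directions, since its CpG at chr11:94734426 went from 6.56% ± 3.01 to 4.84% ± 4.06 in wild-type and from 56.5% ± 4.84 to 3.22% ± 1.62 in TTKO cells (SD, n = 3). The CpG with the smaller loss above 50% was chr7:138970031 in the Fgfr2 model, which retained 70.7% in wild-type and 48.3% in TTKO cells (interaction 1.60, standard error 0.31, adjusted p = 0.0117). Wild-type and TTKO cells were 1 line each, so a difference between them cannot be told apart from any other difference between these lines.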

How the data were processed

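Bisulfite-converted amplicons were sequenced in wild-type and TTKO cells. Per the methods, the authors aligned amplicon reads with Rbowtie in QuasR (mm9), determined levels with AmpliconBiSeq, and left out levels on fewer than 100 reads, CpGs not covered over the time course and 1 variable amplicon. The deposited tables give read counts per CpG (coverage) and the methylation level as a fraction. The deposited SureSelect table gives percent methylation, called with qMeth, with replicates pooled by the authors. Levels were multiplied by coverage to give methylated reads, which were whole at 100% of 31338 values (tolerance 1e-06 reads).

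A quasi-binomial logistic model was fitted per CpG and per amplicon, with 0.5 added to each count and the dispersion moderated across CpGs with squeezeVar of limma 3.58.1 (R 4.3.3) and not under 1. The interaction of line and day was fitted in the same way. Benjamini-Hochberg adjustment ran over all features of a fit, with a threshold of 0.05. Means were compared with exact permutation tests. The scripts were tested on simulated data. Genes are from GENCODE M1 and sequences from the mm9 genome, read with pysam 0.24.0.

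Sites were named by a rule, at most 1 CpG per amplicon: the 10 largest falls among called CpGs without overlap, the 5 smallest relative losses among CpGs with at least 50% at day 0, up to 5 called rises, and per class the amplicons of at least 2 CpGs with the largest and smallest fall. The interaction sites beyond these, and neighbouring CpGs, were chosen after their values were seen. Members and lists were chosen with earlier results of these data known. Intervals from coverage would cover counting error only.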

Additional observations from a re-analysis of the deposited data

Results flagged for a closer look

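The items here differed between wild-type and TTKO cells in the change of log2 odds from day 0 to day 29 by the interaction of the quasi-binomial model. At CpG level, 5 CpGs lost more and 31 lost less in wild-type cells. Of the sites named by the rule, the CpG near Irx4 had a difference of -1.63 (adjusted p = 0.0271) and the CpG in B3galt4 one of 3.03 (adjusted p = 0.0309). The B3galt4 difference no longer passed without any 1 of the day 0 samples (adjusted p = 0.0548 to 0.0625).

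Among the amplicons described by class, 1 lost more in wild-type cells, that of 2700060E02Rik in the CTCF class, with a difference of -0.87. The others lost less: Trak1 with 2.66, Lonrf2 with 2.65, Slx1b with 2.42, Dgcr6 with 2.07, B3galt4 with 1.74, Otor with 1.10 and Fgfr2 with 0.84. Apart from Fgfr2, these amplicons were under 15% at day 0 in wild-type cells, and the part of their low starting level in the difference of log odds was not tested.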

How the results depend on the processing

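The mean change over CpGs stayed between -12.1 and -11.7 percentage points when any 1 sample was left out, and the count of lower CpGs between 166 and 191. A fit of all 39 wild-type samples called 103 CpGs lower and 0 higher, of 278 that could be tested. With CpGs of at least 10% at day 0 alone, or with a change of at least 10 percentage points required, 0 CpGs were higher. Both settings leave out the called CpG of B3galt4, at 1.14% at day 0 with a change of 1.34 points, so they could not test that call. The latter setting left 27 amplicons lower. The count of higher CpGs was 0 to 2 and that of lower amplicons 40 to 48 with 1 sample left out. In the mock, the beta-binomial test called 64 CpGs higher and 10 lower, limma called 0 higher, the replicate block 6, and leaving out 1 sample 0 to 10. CpGs losing more in wild-type than in TTKO cells numbered 2 to 18, and those losing less 15 to 38, with 1 wild-type sample left out. The cause of these shifts was not tested.

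Samples share replicate numbers across groups. Deviations from the group means correlated at 0.10, 0.0763 and 0.123 for the same number, not over 0.1 in each, so the numbers were not taken as pairs, although every sample correlated best with its own number. With the replicate block, 191 CpGs were lower and 1 higher, 45 amplicons were lower, 6 CpGs lost more and 38 less in wild-type cells, and the paired mean change of -11.8 had an exact sign-flip p of 0.25, the smallest 3 pairs allow.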
